A study of Mus musculus with 10 samples.

Results

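The V-ATPase is the proton pump that acidifies lysosomes, endosomes and secretory compartments. Described here are 10 of its subunits that are made in nearly every cell type: Atp6v0a1, Atp6v0c, Atp6v0d1 and Atp6v0e of the membrane sector V0, and Atp6v1a, Atp6v1b2, Atp6v1c1, Atp6v1d, Atp6v1e1 and Atp6v1h of the cytosolic sector V1. They were chosen by gene symbol among the 13299 genes of the deposited table, and all 10 were present. The study compared whole kidneys from 5 mice heterozygous for a knocked-in S74N change in Rragc (Rragc S74N/+) with kidneys from 5 Rragc +/+ mice, all aged 1.5 years, and the labels name no treatment. The change was made by CRISPR editing in C57BL/6 mice and is carried by every cell of the body, so that kidney epithelium, vessels and infiltrating leukocytes all bear it. Expression was measured by 3′ mRNA sequencing, in which each transcript gives about 1 read near its poly(A) tail whatever its length, and values are normalized counts.

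In V1, ATP hydrolysis by 3 pairs of A and B subunits turns a central rotor, and in V0 the turning of a ring of proteolipid subunits carries protons across the membrane. On the lysosome the pump also sits beside the Ragulator complex and the Rag GTPases, which bring mTORC1 to the lysosomal surface when amino acids are plentiful. RagC, encoded by Rragc, is one of these GTPases, and the S74N form mimics its GDP-bound, active state. Active mTORC1 keeps the transcription factors TFEB and TFE3 out of the nucleus, and the genes of the pump are among the known targets of TFEB.

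Of the 10 subunits, 9 had a lower mean on the log2 scale in Rragc S74N/+ kidneys, but none passed the threshold over all genes (limma, adjusted p under 0.05), where 6.03% of the 13236 tested genes did (2.58% lower and 3.45% higher). At an unadjusted p under 0.05, 6 of the 10 were lower, against 12.8% of all tested genes in that direction and 25.4% in either. A log2 fold change below 0 was found in 51.3% of all tested genes. The median log2 fold change was -0.33 over the 10 subunits and -0.01 over all tested genes. Taken singly, 20.7% of all tested genes had a value at or below -0.33, a share that does not describe the spread of medians of 10 genes. For 0 of the 10 subunits were the 2 genotypes without overlap, against 8.16% of all tested genes. On the recovered reads of 8 samples, edgeR called 1 of the 10 (Atp6v0d1), against 6.43% of all tested genes. DESeq2 called 3 (Atp6v0c, Atp6v0d1 and Atp6v0e), against 10.6%, and limma on the values of those 8 samples called Atp6v0d1, against 6.3%. In whole tissue, fewer cells of a type and less RNA per cell cannot be told apart.

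The 8 samples whose reads were recovered held 4488493 to 5797251 reads. One library stood apart, for these genes and for others. Rragc S74N/+ replicate 1 was the lowest of all 10 samples for 8 of the 10 subunits. It was also the lowest for 24.1% of all tested genes, against 5.83% to 13.3% for each of the other samples. Its median deviation over the subunits from the Rragc +/+ mean was -0.88 on the log2 scale, whereas the other 4 Rragc S74N/+ kidneys had -0.24 to -0.17, and over all tested genes its own median deviation was 0.02. It held 4930328 reads, neither the most nor the fewest, and 34.6% of its normalized counts were mitochondrial, against 33.8% to 36.8% in the other Rragc S74N/+ and 35.8% to 38.0% in the Rragc +/+ kidneys. Without it, the median of the subunits was -0.23, 9 of 10 still had a log2 fold change below 0 and 5 of 10 were lower at an unadjusted p under 0.05, against 11.3% of all genes. The sex of the mice is not in the labels, and the 4 Y-linked genes examined were above 0 in each of the 10 samples.

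**Figure D1:**
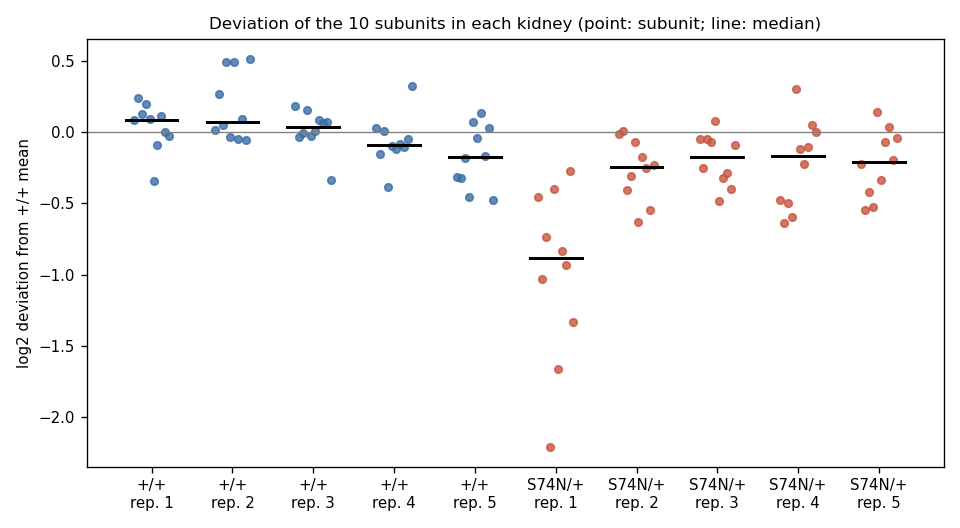
Each point is 1 of the 10 ubiquitous subunits in 1 kidney, as the log2 deviation from the mean of that gene in the 5 Rragc +/+ kidneys, and the black line is the median of the 10 points. The median lies between -0.18 and 0.09 in the Rragc +/+ kidneys, between -0.24 and -0.17 in Rragc S74N/+ replicates 2 to 5, and at -0.88 in Rragc S74N/+ replicate 1.

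The membrane sector was examined first. Atp6v0c encodes the proteolipid whose ring carries the protons, and it was the most abundant of the 10 transcripts. Its normalized counts were 5579, 5698, 4613, 4241 and 3779 in Rragc +/+ replicates 1 to 5 and 2308, 4759, 3963, 3036 and 3241 in Rragc S74N/+ replicates 1 to 5. For Atp6v0c, 3 of the Rragc S74N/+ kidneys lay below every Rragc +/+ kidney, and replicates 2 and 3 lay within their range. The means were 4782 ± 837 and 3461 ± 935 normalized counts (SD, n = 5 each). The log2 fold change was -0.49 ± 0.17 (SE), with a 95% interval of -0.86 to -0.12 (limma adjusted p = 0.099). Without Rragc S74N/+ replicate 2 it passed the threshold, at -0.62 (limma adjusted p = 0.046), and with replicate 1 left out instead it was -0.36 (limma adjusted p = 0.13). The GENCODE annotation names 2 pseudogenes of this gene, Atp6v0c-ps1 and Atp6v0c-ps2, and reads that match a copy equally well may have been lost or assigned to it.

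Atp6v0d1, the subunit that couples the ring to the central stalk of V1, came closest to the threshold. It had 289, 274, 263, 265 and 232.8 normalized counts in Rragc +/+ and 159, 199, 255, 186 and 197 in Rragc S74N/+ replicates 1 to 5. Only replicate 3 of the Rragc S74N/+ kidneys reached the Rragc +/+ range, and the other 4 were below it. The means of 265 ± 20.4 and 199 ± 35.1 (SD, n = 5 each) gave a difference of -0.42 ± 0.13 on the log2 scale (SE, 95% interval -0.71 to -0.14, limma adjusted p = 0.070). When replicate 3 was left out the call was made, with -0.52 and an adjusted p of 0.030 (limma), and with replicate 1 left out instead the value was -0.34 (limma adjusted p = 0.105).

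Atp6v0e, a small membrane subunit, had the largest log2 fold change of the 10 in size and also the largest SE. Rragc +/+ replicates 1 to 5 had 766, 937, 743, 511 and 487 normalized counts, and Rragc S74N/+ replicates 1 to 5 had 144, 539, 637, 442 and 464. The groups overlapped in the region from 487 to 637, and the value of Rragc S74N/+ replicate 1 was far below the rest. The log2 fold change was -0.74 ± 0.31 (SE, 95% interval -1.40 to -0.08, limma adjusted p = 0.15), which was -0.37 when that library was left out (limma adjusted p = 0.18). The largest V0 subunit, Atp6v0a1, which forms the proton path beside the ring, had 262 to 371 normalized counts in Rragc +/+ and 234 to 323 in Rragc S74N/+ kidneys, and its log2 fold change was -0.24 ± 0.13 (SE, 95% interval -0.53 to 0.04, limma adjusted p = 0.27), or -0.19 with the same library left out.

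**Figure D2:**
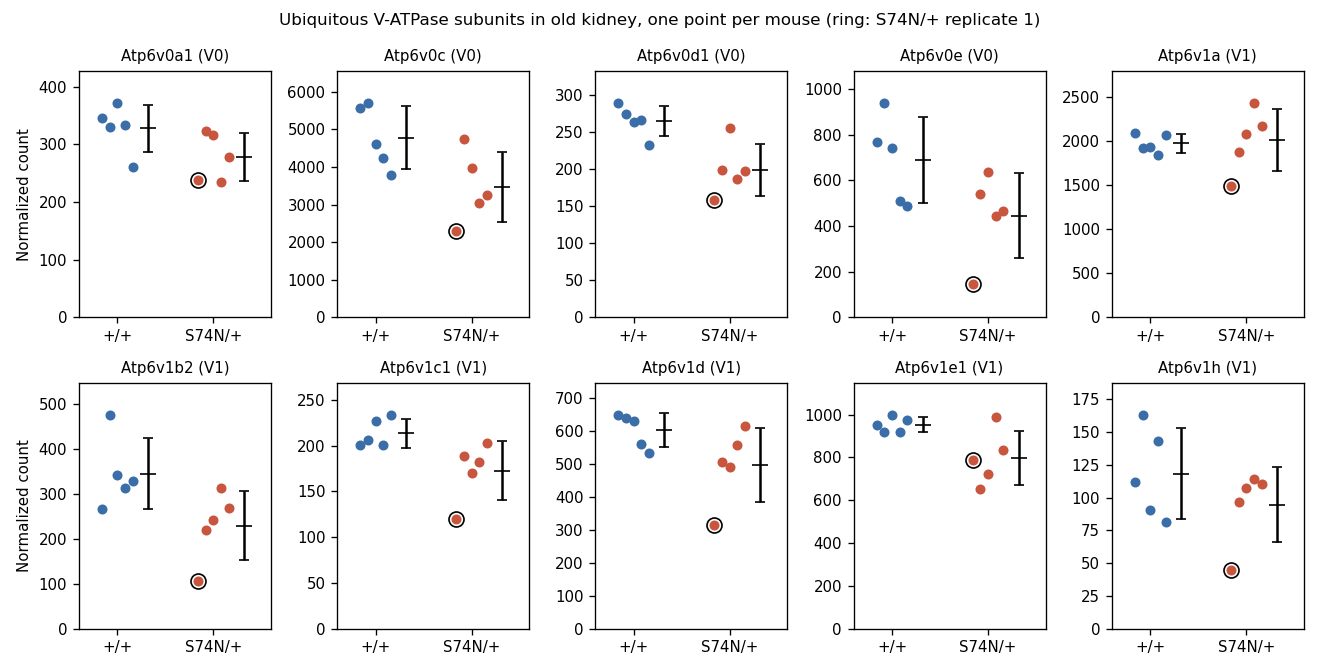
Normalized counts of each of the 10 subunits (y axis, from 0), with 1 point per mouse and the mean ± SD of 5 mice drawn beside each group; the ring marks Rragc S74N/+ replicate 1. The genotypes overlap in all 10 panels, and the ringed kidney is the lowest point in 8 of them.

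In the V1 sector, the catalytic and the non-catalytic subunit of the ATPase head were set side by side. Atp6v1a, which binds and hydrolyses ATP, had 2093, 1918, 1929, 1837 and 2067 normalized counts in Rragc +/+ and 1492, 1874, 2074, 2425 and 2172 in Rragc S74N/+ replicates 1 to 5. The Rragc S74N/+ values lay on both sides of the Rragc +/+ range, and the log2 fold change was 0.01 ± 0.12 (SE), with a 95% interval of -0.25 to 0.27 (limma adjusted p = 0.97), or 0.11 with Rragc S74N/+ replicate 1 left out. Atp6v1b2, its non-catalytic partner, had 266, 475, 341, 312 and 328 normalized counts in Rragc +/+ and 106, 218, 242, 312 and 267 in Rragc S74N/+ replicates 1 to 5. For Atp6v1b2, 3 Rragc S74N/+ kidneys were below all Rragc +/+ kidneys. The log2 fold change of Atp6v1b2 was -0.65 ± 0.23 (SE, 95% interval -1.14 to -0.15, limma adjusted p = 0.105), and it was -0.39 when Rragc S74N/+ replicate 1 was left out (limma adjusted p = 0.12).

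Normalized counts of Atp6v1a per normalized count of Atp6v1b2 ran from 4.04 to 7.86 in Rragc +/+ and from 7.78 to 14.04 in Rragc S74N/+ kidneys. A single Rragc S74N/+ kidney, replicate 4, fell within the Rragc +/+ range. The value of 14.04 was that of Rragc S74N/+ replicate 1, and the other Rragc S74N/+ kidneys had 7.78 to 8.59. The ratio of Atp6v1a to Atp6v1b2 was chosen after the values were seen and was not tested.

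The log2 fold changes of the stalk subunits were smaller in size than that of Atp6v1b2, a difference between genes that was not tested. Atp6v1e1 and Atp6v1c1 belong to the outer stalks that hold the head still, and Atp6v1d to the rotor. Atp6v1e1 had 953, 918, 999, 920 and 973 normalized counts in Rragc +/+ and 788, 650, 722, 987 and 833 in Rragc S74N/+ replicates 1 to 5. Of the Rragc S74N/+ kidneys, 4 were below the Rragc +/+ range and replicate 4 was near its top. Its log2 fold change was -0.27 ± 0.11 (SE, limma adjusted p = 0.15) and had the same rounded value with Rragc S74N/+ replicate 1 left out. For Atp6v1c1 the counts were 200, 206, 226.5, 201 and 234 against 119, 189, 170, 182 and 203 in the same order. Here too 4 Rragc S74N/+ kidneys were below all Rragc +/+ kidneys, with replicate 5 inside their range, and the log2 fold change was -0.32 ± 0.15 (SE, limma adjusted p = 0.18), or -0.20 with Rragc S74N/+ replicate 1 left out. Atp6v1d ranged from 534 to 650 and from 315 to 617 normalized counts in the 2 groups, and its log2 fold change was -0.31 ± 0.15 (SE, limma adjusted p = 0.22), or -0.15 with that library left out.

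Atp6v1h, the subunit that silences ATP hydrolysis when V1 leaves the membrane, was the least abundant, with 81.6 to 163 normalized counts in Rragc +/+ and 44.8 to 114 in Rragc S74N/+ kidneys. Its log2 fold change was -0.34 ± 0.25 (SE, 95% interval -0.88 to 0.20, limma adjusted p = 0.43), or -0.09 with Rragc S74N/+ replicate 1 left out.

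The levels of the transcripts spanned a wide range although the proteins join in 1 complex. In Rragc +/+ kidneys the order of the means was Atp6v0c (4782), Atp6v1a (1969), Atp6v1e1 (953), Atp6v0e (689), Atp6v1d (603), Atp6v1b2 (345), Atp6v0a1 (328), Atp6v0d1 (265), Atp6v1c1 (213) and Atp6v1h (118). Atp6v1b2 and Atp6v0a1 differed by less than the SD of either gene, and Atp6v0e and Atp6v1d by less than the SD of Atp6v0e (189) but more than that of Atp6v1d (52.1).

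The sample titles carry numbers in 2 ranges, under and over 200, with 3 and 2 mice of each genotype, and the labels do not say what they stand for. Within the lower range the median log2 fold change of the subunits was -0.52, with 10 of 10 below 0, and within the higher range it was -0.14, with 7 of 10 below 0. Rragc S74N/+ replicate 1 is in the lower range. Atp6v0c and Atp6v0d1 had values of -0.58 and -0.45 in the lower and -0.35 and -0.37 in the higher range, whereas Atp6v0e went from -1.14 to -0.14 and Atp6v1b2 from -0.98 to -0.15. In the higher range 3 subunits were above 0, namely Atp6v1a at 0.24 (limma unadjusted p = 0.051), Atp6v1d at 0.10 and Atp6v1h at 0.06, and in the lower range Atp6v1a was at -0.14.

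To place these values, the other genes of the pump were read from the same fit. All 4 other widely expressed subunits had a log2 fold change below 0 (median -0.34). Of these, 2 fell past the threshold, against 2.58% of all tested genes. Atp6v1f, a rotor subunit, had 1862 to 2300 normalized counts in Rragc +/+ and 1400 to 1709 in Rragc S74N/+ kidneys, with no overlap (log2 fold change -0.39 ± 0.10, SE, limma adjusted p = 0.032). Atp6v1g1, an outer stalk subunit, had 807 to 1177 against 433 to 850 (log2 fold change -0.61 ± 0.17, SE, limma adjusted p = 0.042). Both calls were close to the threshold and each was lost in 6 of the 10 fits that left out 1 sample. That of Atp6v1f was lost without any of Rragc +/+ replicates 1, 2 and 4 and Rragc S74N/+ replicates 2, 4 and 5 (limma adjusted p 0.055 to 0.079). The call of Atp6v1g1 was lost without any of Rragc +/+ replicates 1 to 4 and Rragc S74N/+ replicates 4 and 5 (limma adjusted p 0.054 to 0.12). Scaling to equal library totals also lost both (limma adjusted p = 0.053 and 0.076), as did the fit without the variance trend (limma adjusted p = 0.087 and 0.11). On the recovered reads DESeq2 called both, whereas edgeR called Atp6v1g1 and not Atp6v1f (edgeR adjusted p = 0.063). In limma on the same 8 samples Atp6v1g1 was called (adjusted p = 0.033) and Atp6v1f was not (adjusted p = 0.052).

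The tissue-restricted isoforms, several of which intercalated cells use to secrete acid at their surface, had a median log2 fold change of 0.03, with 4 of the 8 tested below 0. In limma 0 of the 8 passed the threshold and 1 (Atp6v1g3, an outer stalk isoform, higher) had an unadjusted p under 0.05. On the recovered reads edgeR called 0, and DESeq2 called Atp6v1c2 lower and Atp6v1g3 higher. Each of 5 member and isoform pairs was then compared as a log2 ratio within each kidney, in which the scaling of a sample nearly cancels. Atp6v1b2 relative to Atp6v1b1, the B subunit of intercalated cells, was 0.70 ± 0.30 in Rragc +/+ and 0.08 ± 0.43 in Rragc S74N/+ kidneys (SD, n = 5 per group), a difference of -0.61 (exact permutation p = 0.040, two-sided). After adjustment over the 5 pairs it did not pass (exact permutation adjusted p = 0.20). With Rragc S74N/+ replicate 1 left out the difference was -0.44 (exact permutation p = 0.071, adjusted p = 0.36). The share of Atp6v1b2 in the reads of both genes was 56.3% to 66.8% in Rragc +/+ and 39.7% to 58.4% in Rragc S74N/+ kidneys. The lowest share, 39.7%, was that of Rragc S74N/+ replicate 1.

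Atp6v1b1 itself had 207, 250, 198, 235 and 163 normalized counts in Rragc +/+ and 161, 202, 240, 235 and 190 in Rragc S74N/+ replicates 1 to 5, ranges that nearly coincide (log2 fold change -0.03 ± 0.15, SE, limma adjusted p = 0.92). The other 4 pairs had differences between -0.42 for Atp6v0a1 over Tcirg1 and 0.18 for Atp6v1c1 over Atp6v1c2, with exact permutation adjusted p from 0.28 to 0.80. Of the 5 pairs, 0 passed in the exact permutation test and 1 had an unadjusted p under 0.05. For Atp6v0a1 the isoform of the kidney, Atp6v0a4, was the more abundant, so that Atp6v0a1 took 17.9% to 28.8% of the reads of both in Rragc +/+ and 16.1% to 24.9% in Rragc S74N/+ kidneys.

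The isoforms themselves were read kidney by kidney. Atp6v0a4, the a subunit at the surface of intercalated cells, had 1040, 996, 919, 1219 and 1199 normalized counts in Rragc +/+ and 1204, 1104, 953, 1224 and 1201 in Rragc S74N/+ replicates 1 to 5. Tcirg1, the a subunit of osteoclasts and macrophages, had 87.3, 56.2, 51.8, 62.0 and 57.7 against 81.1, 75.6, 59.0, 49.9 and 93.3 normalized counts. Both overlapped widely (log2 fold changes 0.08 ± 0.11 and 0.18 ± 0.20, SE, limma adjusted p = 0.68 and 0.63). Atp6v0d2, the restricted d subunit, had 60.4, 48.9, 61.4, 58.5 and 41.8 normalized counts in Rragc +/+ and 29.8, 36.8, 53.0, 38.7 and 48.6 in Rragc S74N/+ replicates 1 to 5. Replicates 1, 2 and 4 of the Rragc S74N/+ kidneys were below its Rragc +/+ range, and its log2 fold change was -0.39 ± 0.20 (SE, limma adjusted p = 0.23). Atp6v1c2, the restricted C subunit, had 104, 129, 105, 76.8 and 57.7 normalized counts in Rragc +/+ and 40.1, 80.4, 90.0, 53.0 and 68.0 in Rragc S74N/+ replicates 1 to 5. Only replicates 1 and 4 of the Rragc S74N/+ kidneys were below its Rragc +/+ range (log2 fold change -0.51 ± 0.24, SE, limma adjusted p = 0.205).

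**Figure D3:**
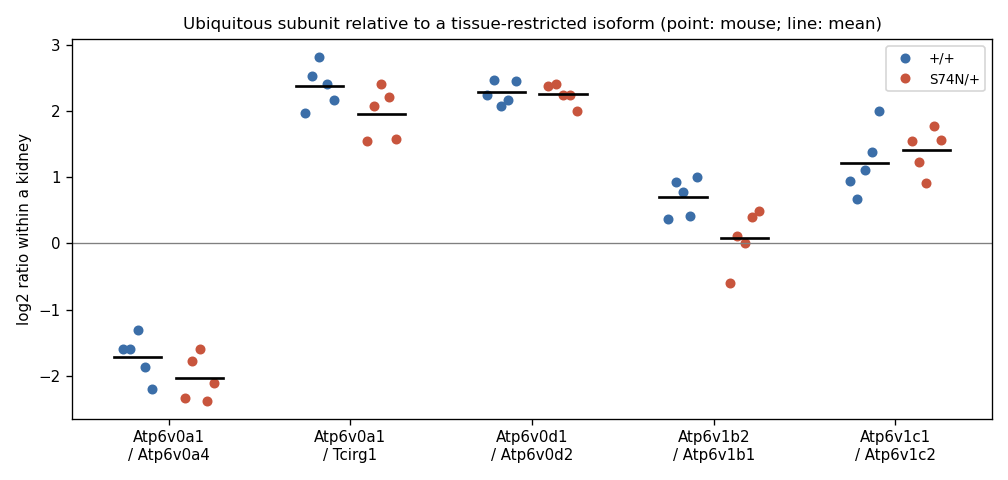
Log2 ratio of a ubiquitous subunit to a tissue-restricted isoform within each kidney, with 1 point per mouse and the mean of 5 mice as a line. Atp6v1b2 over Atp6v1b1 has means of 0.70 in Rragc +/+ and 0.08 in Rragc S74N/+ kidneys, and the 2 genotypes overlap in all 5 pairs.

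**Figure D4:**
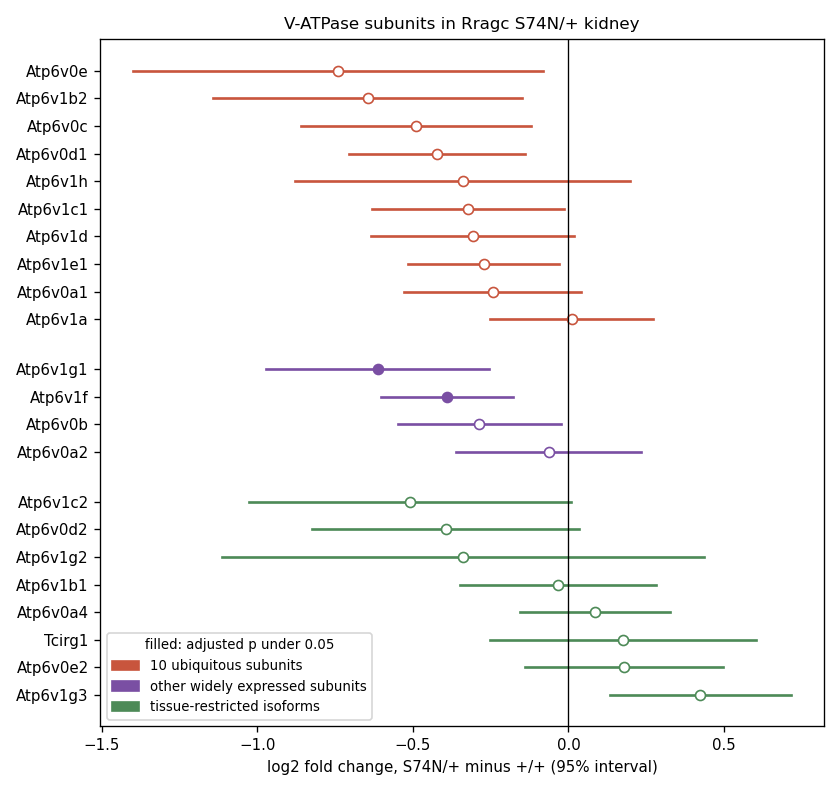
Log2 fold change of the 22 tested pump subunits in Rragc S74N/+ relative to Rragc +/+ kidneys, with 95% intervals from limma; filled points passed the threshold over all genes. Of the 10 ubiquitous subunits, 9 lie left of 0, all with open points, and the 2 filled points are Atp6v1f and Atp6v1g1.

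Of the 13 tested accessory, assembly and regulatory genes of the pump, 9 had a log2 fold change below 0 (median -0.23). In limma 1 rose and 0 fell past the threshold, against 3.45% and 2.58% of all tested genes. At an unadjusted p under 0.05, 2 were higher and 4 lower, against 12.6% and 12.8% of all tested genes. On the recovered reads edgeR called Oxr1 higher, and DESeq2 called Oxr1 and Dmxl1 higher. The rise in limma was that of Oxr1, which has a TLDc domain, a fold found in proteins that bind V1. It had 122 to 197 normalized counts in Rragc +/+ and 179 to 244 in Rragc S74N/+ kidneys (log2 fold change 0.56 ± 0.15, SE, limma adjusted p = 0.033). It was not called without any of Rragc +/+ replicates 1 to 4 and Rragc S74N/+ replicates 4 and 5 (limma adjusted p 0.063 to 0.088). Of 11 other genes of ion transport in lysosomes and endosomes, 1 fell and 0 rose in limma, against 2.58% and 3.45% of all tested genes. The gene that fell was Clcn7, the exchanger that carries chloride into the lysosome as the pump moves protons. It had 45.4 to 71.8 normalized counts in Rragc +/+ and 18.7 to 44.0 in Rragc S74N/+ kidneys, with no overlap, and its log2 fold change was -1.15 ± 0.24 (SE, limma adjusted p = 0.013). The call was made in all 10 fits that left out 1 sample. It did not pass within either range of title numbers (limma adjusted p = 0.16 and 0.084).

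Among 15 tested genes of the Ragulator, the Rag GTPases, the folliculin complex and the TFEB family, 0 passed the threshold in limma. Over all tested genes 6.03% did. At an unadjusted p under 0.05, 6 of the 15 were lower, against 12.8% of all tested genes, and their median log2 fold change was -0.36 over the 15. On the recovered reads edgeR called 2 of the 15 lower (Lamtor1 and Rraga), against 6.43% of all tested genes called in either direction. DESeq2 called 3 (Fnip1, Lamtor1 and Rraga), against 10.6%. Tfeb had 52.7 to 104 normalized counts in Rragc +/+ and 37.7 to 73.0 in Rragc S74N/+ kidneys (-0.41 ± 0.22, SE, limma adjusted p = 0.26). For Tfe3 the log2 fold change was 0.21 ± 0.18 (SE, limma adjusted p = 0.48), or 0.052 with Rragc S74N/+ replicate 1 left out. For Rragc it was -0.22 ± 0.20 (SE, limma adjusted p = 0.51), or -0.09 with Rragc +/+ replicate 5 left out. Within the higher range of title numbers Rragc passed the threshold, at -0.72 (limma adjusted p = 0.033). Within the lower range Rragc was at 0.11 (limma adjusted p = 0.82). Reads from the 3′ end do not show which Rragc allele they came from.

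TFEB binds a palindromic site built on the letters CACGTG, so the start regions of the subunits were searched for it. The windows, 250 bases before to 50 after each gene start, were those of RefSeq on GRCm38.p6, a build older than the GRCm39 used for the counts. Windows were found for 7 of the 10 subunits and not for Atp6v1b2, Atp6v1c1 and Atp6v1h. The 6 letters read the same on both strands. They were present for 3 of the 7 subunits, counted by gene over 9 windows, and in 7.15% of all 32851 windows, counted by window. The longer form TCACGTG on either strand, which contains the shorter, was found for the same 3 and in 3.77% of all windows. The matches are shown to compare subunits that share the letters and differ in their values, each 5′ to 3′ on the strand of the gene, with the site and its flanking t and a in capitals.
Atp6v0d1: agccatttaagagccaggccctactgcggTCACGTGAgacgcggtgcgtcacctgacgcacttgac
Atp6v0e: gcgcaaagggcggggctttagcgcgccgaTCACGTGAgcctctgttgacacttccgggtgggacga
Atp6v1a: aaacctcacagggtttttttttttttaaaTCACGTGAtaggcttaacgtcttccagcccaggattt

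The stretch of Atp6v0d1 is chr8:105566032-105566097 on the minus strand, that of Atp6v0e chr17:26676369-26676434 on the plus strand and that of Atp6v1a chr16:44139355-44139420 on the minus strand. The capitals begin 4 bases before the gene start in Atp6v0d1, at base 3 after it in Atp6v0e and 132 bases before it in Atp6v1a. The log2 fold changes of these 3 genes were -0.42, -0.74 and 0.01. No match was found in the windows of Atp6v0a1, Atp6v0c, Atp6v1d and Atp6v1e1, which says only that the letters are not in these windows.

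Markers of the cells that make up the kidney also moved between the genotypes, and those past the limma threshold are named here after their values were seen. All 5 markers of the distal convoluted tubule fell (Slc12a3, Pvalb, Trpm6, Wnk4 and Klhl3), with a summed level of 4569 to 5468 normalized counts in Rragc +/+ and 1216 to 1938 in Rragc S74N/+ kidneys. Of 5 markers of the thick ascending limb, 3 fell (Umod, Cldn10 and Ppp1r1a; summed level 9098 to 12299 against 3904 to 9819). Slc12a1 and Cldn16 of the same list had log2 fold changes of 0.04 and 0.44 that did not pass. Umod of this list had means of 5806 in Rragc +/+ and 2119 in Rragc S74N/+ kidneys. Of 10 proximal tubule markers only Slc5a2 fell (123451 to 167057 against 126977 to 170420). Kap had the largest part in these sums, with means of 94161 in Rragc +/+ and 103466 in Rragc S74N/+ kidneys. Among 10 intercalated cell markers, pump subunits left aside, Slc26a4 rose and Slc4a1 and Aqp6 fell (816 to 999 against 588 to 953), and edgeR and DESeq2 called the latter pair but not Slc26a4. Of 7 principal cell markers (1038 to 3372 against 1112 to 2774), 0 passed in limma, edgeR or DESeq2. In limma 0 of these had an unadjusted p under 0.05. Aqp2 had the highest means of this list, 800 in Rragc +/+ and 926 in Rragc S74N/+ kidneys.

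Macrophages, which are rich in lysosomes, had 4 of 10 markers higher (C1qb, Lyz2, Ctss and Cx3cr1) and 0 lower past the threshold, with summed levels of 785 to 1007 normalized counts in Rragc +/+ and 1293 to 1762 in Rragc S74N/+ kidneys. C1qc and Cd68 had log2 fold changes of -0.48 and -0.34 that did not pass. Trac of 4 T cell markers rose (18.9 to 53.3 against 71.3 to 99.98), as did Col1a1, Col1a2 and Pdgfra of 7 fibroblast markers (810 to 1415 against 1314 to 2202) and Synpo of 6 podocyte markers (879 to 965 against 997 to 1253). On the recovered reads Trac was called by neither edgeR nor DESeq2, and Col1a2 was called by DESeq2 only. Of 4 B and plasma cell markers (749 to 2305 against 1418 to 5977) and 7 endothelial markers (1787 to 2014 against 1860 to 2329), 0 passed in limma, edgeR or DESeq2, although 3 and 1 had an unadjusted p under 0.05 in limma. Igkc had the largest part in the B and plasma cell sums, with means of 1357 in Rragc +/+ and 2795 in Rragc S74N/+ kidneys. The lowest mean of any gene present was 4.37 normalized counts, so no marker could be at 0 in every sample. The part of these differences in the values of the pump subunits was not tested.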

How the data were processed

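Per the labels and the study's methods, the authors aligned 3′ mRNA reads (QuantSeq FWD libraries from 300 ng of RNA with quality scores of 6.2 to 7) to GRCm39 with TopHat2 2.0.10, used HTSeq 0.6.1 to count sense-strand reads of each gene, and deposited 1 table of normalized counts, signal values that are read counts divided by a size factor of each sample. Columns were matched to samples by title, and replicates were numbered by order of deposit. Nothing says more of how mice were sampled, so p-values measure the spread between these 10 samples. Genes with at least 5 normalized counts in at least 5 samples were kept (13236 of 13299). Log2 of the value plus 1 entered a linear model in limma 3.58.1 under R 4.3.3 (genotype only, eBayes with trend), with two-sided p-values adjusted by Benjamini-Hochberg over all tested genes at 0.05; log2 fold changes understate those of low genes. Isoform ratios were tested by exact permutation over the 252 allocations of samples, where the smallest possible p is 0.00794. In 8 samples 100% of values were whole multiples of the value of 1 read, within 0.01 of a read; in Rragc +/+ replicate 5 and Rragc S74N/+ replicate 3 that value was too close to 1 to be used. Both edgeR 4.0.16 (851 genes called) and DESeq2 1.42.0 (1402) were run on the reads of the 8. Fits on fewer samples kept the same genes. Scripts were tested on simulated data. Per-sample values were given for subunits with an unadjusted p under 0.05 and for the 5 isoforms paired with subunits, and also for Atp6v1a, which was chosen after its values were seen. Other pump and lysosomal genes were named where they passed the threshold, as an isoform of a subunit, or as Tfeb, Tfe3 and Rragc. The members and lists were chosen with earlier results of these data known. Atp6v1e2, Atp6ap1l, Rragb and 9 listed markers were not analysed here.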

Additional observations from a re-analysis of the deposited data

Results flagged for a closer look

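Among 44 groups of 5 samples (22 named genes in both genotypes), 2 had a sample far from the others, where chance gives about 1 in 20, or 2.2. Atp6v1h had 44.8 normalized counts in Rragc S74N/+ replicate 1, against 96.9 to 114 in the other 4 Rragc S74N/+ kidneys. Tcirg1, the a3 isoform of macrophages and osteoclasts, had 87.3 normalized counts in Rragc +/+ replicate 1, against 51.8 to 62.0 in the other Rragc +/+ kidneys.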

How the results depend on the processing

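No paired analysis was possible because the labels carry no replicate numbers. A fit with the range of title numbers as a block called 860 genes and 0 subunits. The number of subunits past the threshold was 0 and became 1 with edgeR on 8 samples, 1 with limma on the same 8 samples, 3 with DESeq2 and 0 to 1 when 1 sample was left out (1 without Rragc S74N/+ replicate 2 or 3). The number lower at an unadjusted p under 0.05, counted after the values were seen, was 6, against 12.8% of all tested genes. It became 3 without the variance trend (against 11.2%) and 2 in the samples with title numbers over 200 (against 8.77%). With equal library totals it was 4 (against 8.36%). When 1 sample was left out it was 3 to 7 (3 without Rragc +/+ replicate 3), against 8.94% to 13.5% of all tested genes. The number with a log2 fold change below 0 ran from 7 to 10 over all fits, and 0 isoform pairs passed in any fit. Over all genes, 798 were called (457 higher, 341 lower), 391 without the trend, 46 in the samples with title numbers under 200, 1402 with DESeq2, 187 at an adjusted p under 0.01 and 311 to 902 when 1 sample was left out (368, 311 and 383 without Rragc +/+ replicates 1, 2 and 4, and 371 without Rragc S74N/+ replicate 5). Equal library totals gave 76.1% of calls higher, against 57.3%. Atp6v1a was -0.14 with title numbers under 200, 0.24 with those over 200 and -0.062 to 0.11 when 1 sample was left out. With title numbers over 200, Atp6v1d was 0.10, Atp6v1h 0.055, Atp6v1b1 0.11 and Tfe3 -0.037. Rragc was 0.11 with title numbers under 200. With those over 200 Rragc was -0.72 and passed the threshold (limma adjusted p = 0.033). Atp6v1b1 was 0.046 with equal totals and -0.12 to 0.051 when 1 sample was left out. The causes were not tested.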
